A study of Homo sapiens with 132 samples.

Results

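The genes described here encode the proteins of the cytosolic ribosome. They were taken as the protein-coding genes whose symbols start with RPL or RPS followed by a number, together with RPSA, RPLP0, RPLP1 and RPLP2. S6 kinase genes and Y-linked copies were left out, and a mean of at least 1 CPM (the count of a gene scaled to a common library total) over all libraries was required. Of 65217 gene identifiers, 84 had such a symbol and 74 passed the limit: 42 proteins of the large subunit, 29 of the small subunit and 3 of the stalk. The study sequenced polyadenylated RNA from 4 gastric cancer cell lines in 44 conditions with 3 biological replicates each. MKN1 and Hs746T cells were left untreated or given EGF (5 ng/ml), the EGFR antibody cetuximab (Cet, 1 µg/ml), both together, the HER2 antibody trastuzumab (Tra, 5 µg/ml), the kinase inhibitor afatinib (Afa, 0.5 µM) or trastuzumab plus afatinib, for 4 h or 24 h. Cells of the lines MKN7 and NCI-N87 (labelled N87) received nothing, Tra, Afa or Tra+Afa over the same times. The controls were untreated cells, each line is a single established line, and Hs746T was grown in DMEM while the other lines were grown in RPMI, so line and medium cannot be told apart.

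Library totals ran from 25832557 to 69434151 counts with a median of 50725775. ERBB2, which encodes HER2, had medians of 13909 CPM in NCI-N87 and 4459 CPM in MKN7 against 138 CPM in MKN1 and 86.4 CPM in Hs746T. The epithelial marker CDH1 was nearly absent from MKN1 (median 1.90 CPM) and Hs746T (0.791 CPM), although the keratin gene KRT8 was present in every line. Another keratin gene, KRT19, had medians of 4148 CPM in MKN1 and 25.6 CPM in Hs746T. The mesenchymal marker VIM had medians of 1587 CPM in Hs746T and 545 CPM in MKN1, and ZEB1 had 59.1 and 36.7 CPM. CDH2, of the same list, was at 78.6 CPM in Hs746T but at 0.415 CPM in MKN1. FN1 was at 2092 CPM in Hs746T, and at 641 CPM in MKN1 beside 578 CPM in MKN7. Hs746T also had the fibroblast marker COL1A1 at 518 CPM (13.3 to 17.3 CPM in the other lines). COL1A2 stood at 161 CPM there, but PDGFRB, of the same list, at only 3.34 CPM. The endothelial marker PECAM1 was at 158 CPM in Hs746T (0.437 to 10.8 CPM in the other lines). The endothelial marker CDH5 stayed at or below 0.912 CPM in every library. Among the immune markers read the highest value in any library was 10.6 CPM, in MKN1. The T cell marker CD3E stayed at or below 0.0950 CPM in every library.

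A ribosome is built from RNA and about equal numbers of each protein, with the stalk proteins RPLP1 and RPLP2 as the known exception. Messenger RNAs of ribosomal proteins are short and abundant, and they start with a C followed by a run of pyrimidines, the 5′ terminal oligopyrimidine (TOP) tract, through which mTORC1 and LARP1 control their translation more than their amount. EGFR and HER2, the targets of cetuximab, trastuzumab and afatinib, signal to mTORC1 and S6 kinase, and RPS6 is the classical S6 kinase substrate. A few ribosomal proteins have paralogs encoded by separate genes, and these were looked at one by one: RPL22L1, RPS27L, RPL39L, RPL26L1, RPL10L and RPL7L1.

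The start sites of most paralogs differed from those of most other members. RefSeq promoters (GRCh38.p14) were at hand for 58 of the 74 genes. Below, 30 bases around the RefSeq start are printed 5′ to 3′, from 15 bases upstream, and capitals mark the longest C/T run that starts with C, as far as it lies in the window. They were chosen because the later results turn on these genes, with RPS6, RPL39, RPL22 and RPS27 as the ordinary members.
RPS6 (chr9:19380222-19380251, minus strand): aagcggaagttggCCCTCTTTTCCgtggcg
RPL39 (chrX:119791616-119791645, minus strand): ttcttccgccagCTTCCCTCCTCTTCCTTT
RPL19 (chr17:39200268-39200297, plus strand): tgggCTCTCCCCTTCgcagataatgggagg
RPL22 (chr1:6199581-6199610, minus strand): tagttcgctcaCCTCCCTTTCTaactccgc
RPL22L1 (chr3:170870181-170870210, minus strand): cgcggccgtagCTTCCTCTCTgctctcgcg
RPS27 (chr1:153990747-153990776, plus strand): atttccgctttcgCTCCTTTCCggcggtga
RPS27L (chr15:63157463-63157492, minus strand): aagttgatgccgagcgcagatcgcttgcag
RPL26L1 (chr5:172958714-172958743, plus strand): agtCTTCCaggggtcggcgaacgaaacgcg
RPL7L1 (chr6:42879601-42879630, plus strand): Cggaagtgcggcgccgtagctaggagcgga

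A C/T run of at least 7 bases within 20 bases of the start was present in 47 of the 58 members (81.0%). It was present in 5450 of all 27305 promoters (19.96%). Of the 5 paralogs with a promoter only RPL22L1 had such a run, while 46 of the other 53 members had one (86.8%). Among the other members without one were RPL6 and RPS26, which are called lower with Afa below. RPL39L and RPL23 were not in the promoter table. In the 300 bases from 250 upstream to 50 downstream, CCGGAAG, an ETS-type motif, was found on either strand in 19 of 58 members (32.8%) against 10.7% of all promoters. CACGTG, the E-box bound by MYC and related factors, was in 3 members (5.17%) against 7.43%. The CGCG element bound by BANP, named here and not spelled out, was in RPS6 and RPS19 (3.45%) against 0.469%. None of these 3 motifs is contained in another. A match is only a description of the sequence.

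Levels can be compared between genes only per length, so CPM was divided by the length of the shortest principal coding transcript. The median member stood at 897 CPM per kb over all libraries. The highest were RPL19 (3836 CPM per kb), RPL8 (3253) and RPS3 (2425), and the lowest were RPL10L (4.03), RPL5 (4.51) and RPS27L (6.14). The stalk genes stood at 1534 CPM per kb for RPLP0, 975 for RPLP1 and 1141 for RPLP2. RPL13A stood at 1172 CPM per kb, RPS27A, a fusion with ubiquitin, at 1184, RPSA at 898 and RPS6 at 693. The scale is rough for RPL37, RPL27A, RPL37A, RPS23, RPS27L and RPL7L1, whose reference transcript is long.

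**Figure D1:**
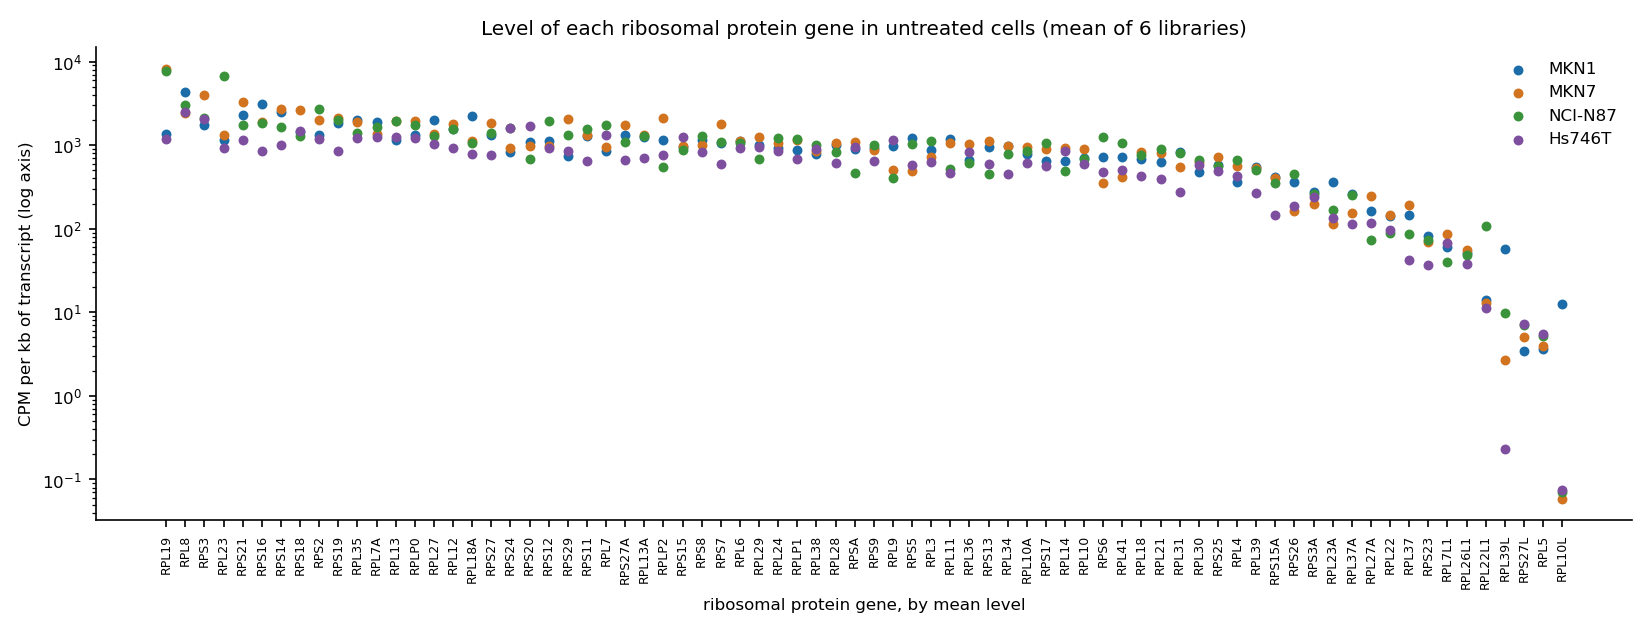
Level of each of the 74 genes in untreated cells, in CPM per kb of transcript on a log axis, 1 point per cell line (mean of 6 untreated libraries), with genes ordered by their mean over all libraries. Most genes sit near 1000 CPM per kb in all lines, and the paralogs RPL39L and RPL10L spread most between lines at the low end.

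Over all libraries the ordinary member stood above its paralog in each pair of members given here. RPL26 did not pass the limit, with a mean of 0.0413 CPM against 32 CPM for RPL26L1. RPL22 was at 122 CPM per kb and RPL22L1 at 28.4, RPS27 at 1357 and RPS27L at 6.14, RPL39 at 470 and RPL39L at 20.1, RPL7 at 1208 and RPL7L1 at 59.98, and RPL10 at 732 and RPL10L at 4.03. In untreated NCI-N87 cells the order of RPL22 and its paralog was turned: RPL22 stood at 88.6 and RPL22L1 at 107 CPM per kb, against 140 and 14 in untreated MKN1 cells.

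The 10 genes under the limit are not silent genes in general. RPL32, RPL15, RPL35A, RPS4X, RPS28 and RPL17, which every cell uses, were listed at 0 in every library. RPL3L, a muscle paralog of RPL3, had a mean of 0.271 CPM. RPS10, RPL26 and RPL36A had means of 0.0542, 0.0413 and 0.0314 CPM, at or below the 0.0432 to 0.116 CPM that 3 counts make at these depths. RPS10, RPL26, RPL36A and RPL17 each share exons on the same strand with another annotated coding gene. The read-through gene RPS10-NUDT3 had a mean of 1.05 CPM. RPL35A and RPS4X share no exon with another gene. RPL5 passed the limit at a mean of only 4.63 CPM, overlaps FAM69A on the other strand and SNORD21 on its own, and its pseudogenes had 48.5% as many counts as RPL5 itself. For the other members the pseudogene counts were at most 4.80% of the member's (RPL23A). The counting rule behind these values is not given in the sources used here, and its part was not tested.

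Together the 74 genes took 3.25% to 8.64% of all counts in a library. The line medians were 4.43% in Hs746T, 5.23% in MKN1, 6.59% in MKN7 and 6.63% in NCI-N87. Some libraries stood apart. In MKN1, replicate 2 held 6.24% to 8.28% in every condition except Cet and Tra+Afa at 24 h, where it held 4.73% and 4.85%. Replicates 1 and 3 of MKN1 lay between 4.75% and 5.43% throughout. In Hs746T at 4 h, replicate 2 held 6.07% to 6.82% in all treated groups but 4.36% in untreated cells. Replicate 3 there differed less, with 4.94% to 5.47% in treated groups and 4.50% in untreated cells. Results that rest on the libraries of replicate 2 are given with and without them.

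**Figure D2:**
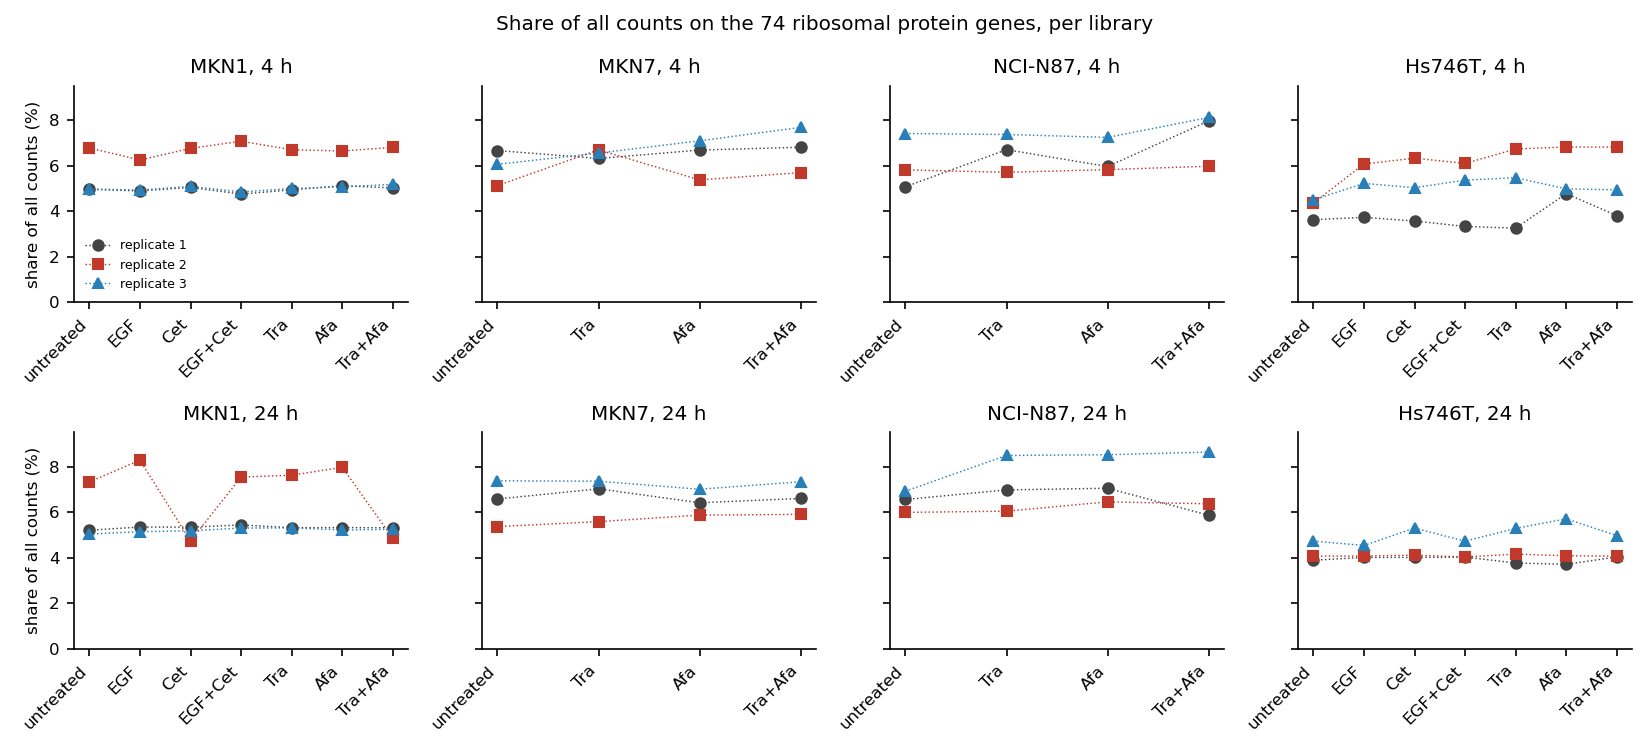
Share of all counts on the 74 genes in percent, 1 point per library, by treatment, cell line and time, with replicates 1, 2 and 3 drawn as separate symbols and joined across treatments by dotted lines only to guide the eye. Replicate 2 of MKN1 sits above the others except under Cet and Tra+Afa at 24 h. In Hs746T at 4 h, replicates 2 and 3 each lie above their untreated library in every treated group.

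Within a condition the members moved as a unit. For the 67 members other than the 6 paralogs and RPL5, the first principal component of the deviations of log2 CPM from the condition mean held 93.3% of the variance over all libraries. The median SD of a member within a condition was 0.306 on the log2 scale (0.175 to 0.436), against 0.141 for 2389 other genes above 100 CPM. The members' mean deviation had the same sign as that of 531 other coding genes with transcripts under 1 kb in 125 of all libraries, and the same sign as that of 3338 genes with transcripts over 4 kb in 16. It had the same sign as respiratory chain subunits and mitochondrial ribosomal proteins in 123 libraries each, translation factors and other TOP genes in 114, and ribosome assembly genes in 95. Of the paralogs, RPL22L1 (116 libraries) and RPL26L1 (115) mostly went along, whereas RPL7L1 shared the sign in 62. These points share library, depth and RNA sample, and the part of transcript length in the spread of the members was not tested.

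The comparison of Afa with untreated cells asks how an inhibitor of the EGFR family acts on these genes. The study names DMSO as the solvent of afatinib, and no library here had DMSO alone. Drug and solvent therefore cannot be told apart in the comparisons of Afa and Tra+Afa with untreated cells. After 24 h the main test, which ignored replicate numbers, called few ordinary ribosomal protein genes in any line. Its calls fell mostly on paralogs. With the replicate number as a block, given below, more members were called in MKN1, MKN7 and NCI-N87. Few calls therefore do not show that the ordinary genes were unchanged. In MKN1, 3 of 74 members were lower and none higher (edgeR's quasi-likelihood test, adjusted p below 0.05), where 13.3% of all genes tested were lower and 12.2% higher. In MKN7, 5 of 73 were lower and 1 higher against 25% and 26.6% of all genes. In NCI-N87, 5 of 73 were lower and none higher against 31% and 31.5%. In Hs746T no member and no gene was called (0% of 18667). There, no member had an unadjusted p below 0.05, and DESeq2 called none either. The members' median log2 fold change (log2FC) was -0.02 for MKN1, -0.13 for MKN7, -0.11 for NCI-N87 and 0.10 for Hs746T, beside medians over all genes of 0.01, 0.04, 0.03 and 0.01.

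**Figure D3:**
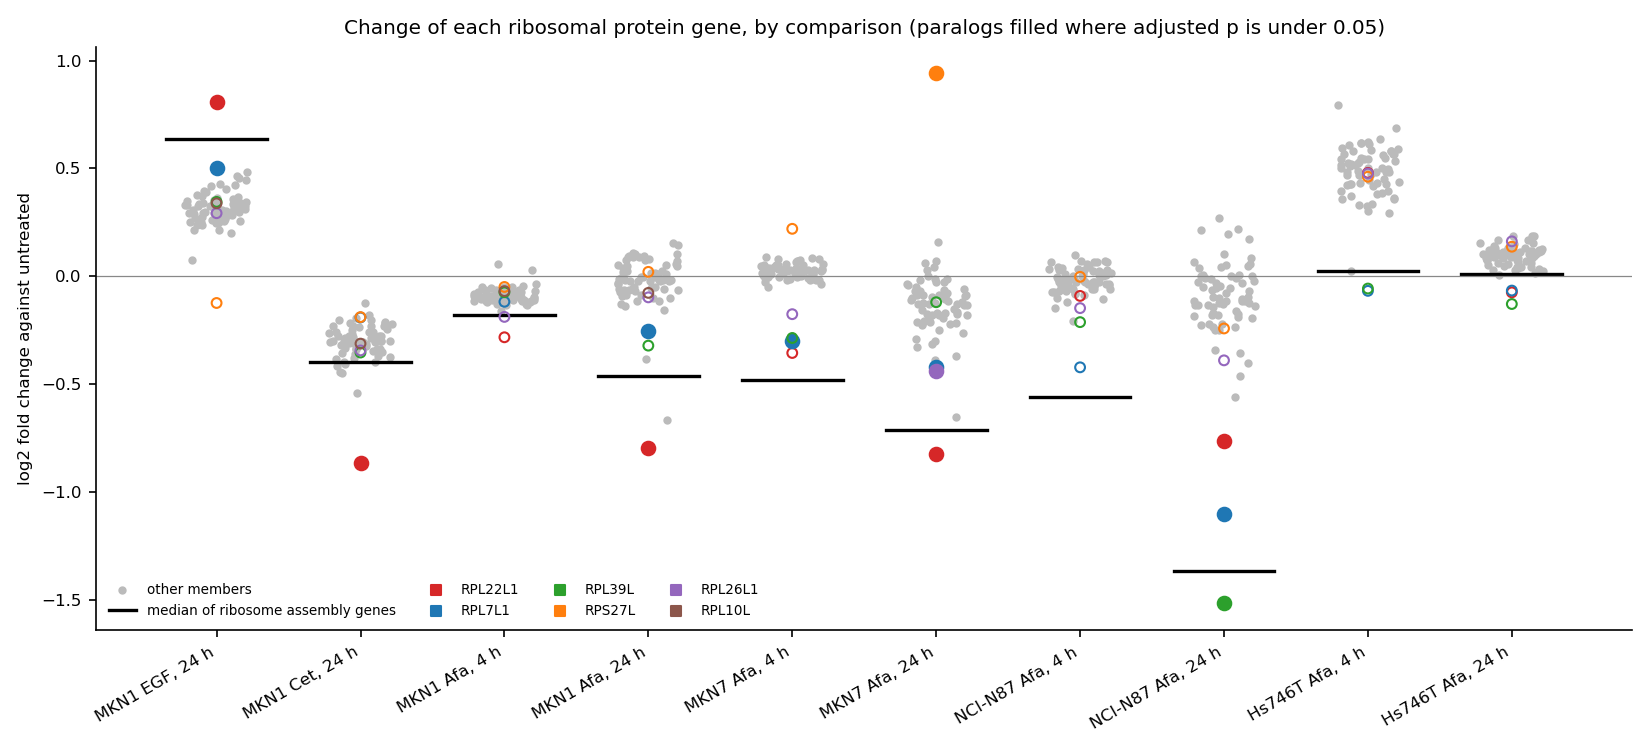
The log2FC against untreated cells of each of the 74 genes in 10 comparisons, with grey points for the ordinary members, coloured circles for the 6 paralogs (filled where edgeR's adjusted p was below 0.05) and a black bar for the median of the ribosome assembly genes. Under Afa at 24 h most grey points stay nearer to 0 than the black bar in MKN1 (-0.46), MKN7 (-0.71) and NCI-N87 (-1.37).

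The scale matters in the lines that respond most. With library size alone in place of TMM factors, the median over all genes in NCI-N87 was 0.29 instead of 0.03, and the members' median turned from -0.11 to 0.14, with 5 members higher and 2 lower. Relative to all genes the members stood at -0.14 with TMM factors and at -0.15 with library size. In MKN7 that difference was -0.17 and -0.16. With the replicate number as a block, since same-numbered libraries deviated together, 5 members were lower in MKN1 (22% of all genes). In MKN7 the block gave 16 lower and 1 higher (30.6% and 33.1% of all genes), and in NCI-N87 15 lower and 1 higher (35.8% and 36.3%). Leaving out replicate 1, 2 or 3 gave 2, 11 and 0 lower members in MKN1, 2, 19 and 3 in MKN7, and 2, 2 and 6 in NCI-N87. Shares of all genes were not set beside counts from other scalings or with a replicate left out, here or below. Such counts describe only how the members' calls depend on the scale and the libraries.

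RPL22L1, the paralog of RPL22, fell after 24 h of Afa in the 3 lines that responded to it. In MKN1 its 3 libraries had 18.9, 27.4 and 22.5 normalized CPM untreated and 12.7, 17.1 and 10.3 with Afa, and the groups did not overlap (log2FC -0.80, SE 0.25, edgeR adjusted p = 0.0186). In MKN7 they had 23.8, 20.8 and 33.1 untreated and 13.9, 13.9 and 16.2 with Afa, again without overlap (log2FC -0.82, SE 0.16, edgeR adjusted p = 0.000258). In NCI-N87 the level was higher throughout, 227, 217 and 233 untreated and 114, 116 and 178 with Afa (log2FC -0.76, SE 0.26, edgeR adjusted p = 0.0134). In Hs746T the groups overlapped at 24.4, 22.8 and 24.6 untreated and 21.2, 20.7 and 26.6 with Afa (log2FC -0.07, SE 0.22). RPL22 itself had log2FC of -0.05, -0.12, -0.05 and 0.12 in MKN1, MKN7, NCI-N87 and Hs746T, none of them called. The RPL22L1 call in MKN1 was lost without replicate 1 (-0.89) or replicate 3 (-0.65), and that in NCI-N87 without replicate 1 (-0.61) or 2 (-0.67) and with library size alone (-0.51).

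RPL7L1 resembles RPL7 but is related to a factor of large-subunit assembly, and it fell in the same 3 lines. In NCI-N87 it had 161, 132.4 and 152 normalized CPM untreated and 74.6, 65.9 and 71.2 with Afa, less than any untreated library (log2FC -1.10, SE 0.15, edgeR adjusted p = 1.96e-06). In MKN7 it had 289, 298 and 311 untreated and 221, 232 and 221 with Afa (log2FC -0.42, SE 0.06, edgeR adjusted p = 3.2e-06). In MKN1 it had 210, 191 and 218 untreated and 188, 176 and 163 with Afa, so that the groups were separate but close (log2FC -0.25, SE 0.08, edgeR adjusted p = 0.0188). The MKN1 call was lost without replicate 3 (-0.16), with library size alone (-0.17), with no filter (-0.25) and in a fit of the compared groups only (-0.25). In Hs746T it had 254, 263 and 255 untreated and 226, 262 and 254 with Afa, which was not called. RPL7 had log2FC of -0.10, -0.18, -0.13 and 0.05 in MKN1, MKN7, NCI-N87 and Hs746T, none called.

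RPL39L, a testis-enriched paralog of RPL39, was called in NCI-N87 alone. Its libraries there had 6.34, 6.06 and 6.87 normalized CPM untreated and 1.71, 2.10 and 3.10 with Afa (log2FC -1.51, SE 0.24, edgeR adjusted p = 1.46e-05), the largest fall of any member under Afa. In MKN1, where RPL39L was highest, it had 33.5, 41.3 and 37.4 untreated and 26.96, 39.4 and 24.5 with Afa, and the groups overlapped (log2FC -0.32, SE 0.16, edgeR adjusted p = 0.14). In MKN7 it had 1.99, 1.61 and 1.82 untreated and 1.90, 1.64 and 1.47 with Afa. RPL39 had log2FC of 0.07, -0.09, -0.03 and 0.12 in MKN1, MKN7, NCI-N87 and Hs746T.

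RPS27L, a paralog of RPS27 and a known p53 target, rose in MKN7 alone. It had 33.6, 34.2 and 36.7 normalized CPM untreated and 67.8, 70.2 and 63.7 with Afa, so that every treated library was above every untreated one (log2FC 0.94, SE 0.08, edgeR adjusted p = 1.08e-08). In the other lines the groups overlapped. MKN1 had 21.3, 26.9 and 17.6 untreated and 20.3, 27.3 and 19.98 with Afa, and NCI-N87 had 45.4, 42.4 and 47.9 untreated and 35.9, 32.4 and 49.1 with Afa. RPS27 in MKN7 had 718, 564.2 and 828 untreated and 731, 608 and 844 with Afa (log2FC 0.04, SE 0.19).

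**Figure D4:**
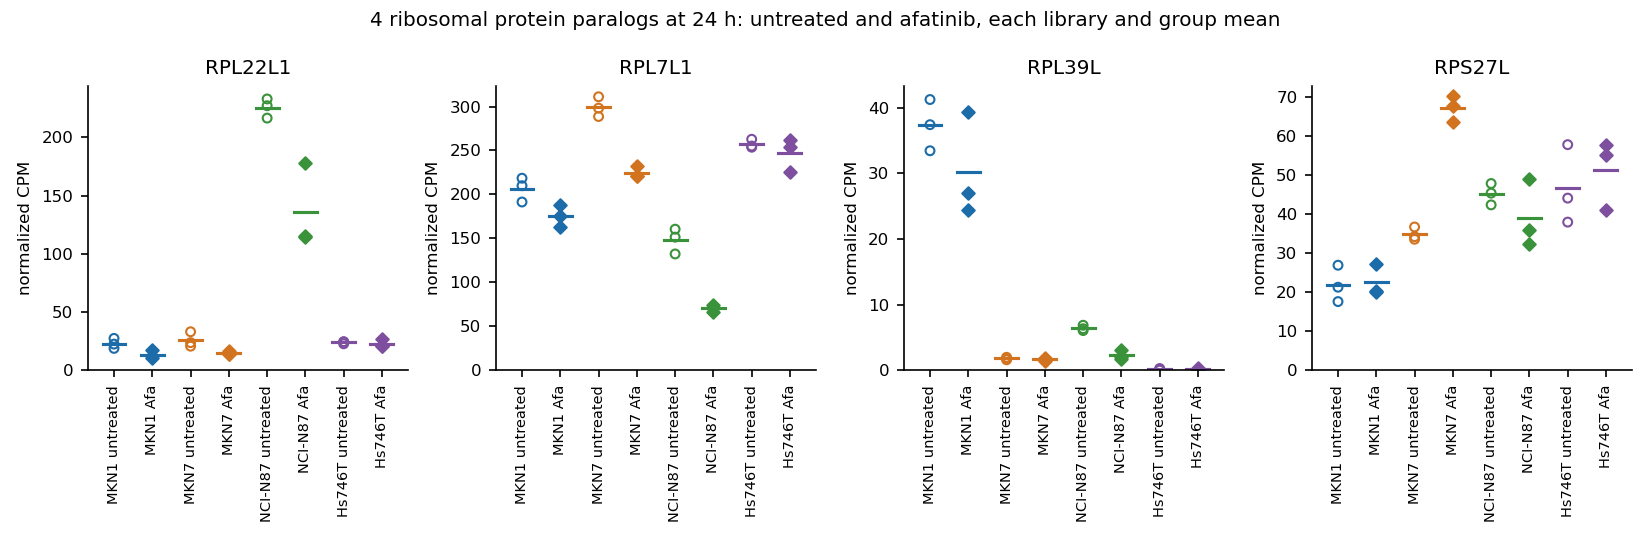
Normalized CPM of RPL22L1, RPL7L1, RPL39L and RPS27L at 24 h in each library of untreated (open circles) and Afa-treated cells (filled diamonds) of the 4 lines, with a bar at each group mean. RPL22L1 and RPL7L1 are lower with Afa in MKN1, MKN7 and NCI-N87, RPL39L drops in NCI-N87 from 6.06 to 6.87 down to 1.71 to 3.10, and RPS27L is higher with Afa in MKN7.

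The remaining calls under Afa at 24 h fell on a few members. RPL5, which binds MDM2, fell in MKN1 (log2FC -0.67, SE 0.19, edgeR adjusted p = 0.00927) from 3.32, 3.84 and 4.10 normalized CPM to 2.07, 2.69 and 2.42, a call lost without replicate 3 (-0.60). It also fell in NCI-N87 (-0.46, SE 0.19) from 5.00, 5.71 and 6.10 to 3.32, 4.28 and 4.89, where the call was lost when any 1 of the 3 replicates was left out. RPL5 is the member whose counts are low and partly on pseudogenes. RPL11 and RPL23, which also bind MDM2, had log2FC between -0.17 and 0.17 in the 4 lines and were not called. In MKN7, RPS26 fell from 104, 78.9 and 130 to 64.5, 56.3 and 79.3 (log2FC -0.65, SE 0.19), and 1 treated library lay above the lowest untreated one. RPL26L1 (-0.44, SE 0.16) and RPL6 (-0.33, SE 0.12) also fell in MKN7, and RPL35 fell in NCI-N87 (-0.56, SE 0.21) from 660, 583 and 718 to 434, 386 and 542. Without replicate 1, the falls of RPL26L1, RPL6, RPS26 and RPL35 were no longer called. RPS6 had log2FC of 0.14, -0.15, -0.11 and 0.03 in MKN1, MKN7, NCI-N87 and Hs746T, and none was called.

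Genes of ribosome assembly and of other lists were counted in the same comparisons, in which 13.3%, 25% and 31% of all genes were lower and 12.2%, 26.6% and 31.5% higher in MKN1, MKN7 and NCI-N87. Of 42 ribosome assembly genes tested, 35 fell in MKN1, 41 in MKN7 and 40 in NCI-N87 under Afa at 24 h, and none in Hs746T. Their median log2FC was -0.46, -0.71, -1.37 and 0.01. Mitochondrial ribosomal proteins fell in 5 of 65, 45 of 64 and 47 of 64 genes in MKN1, MKN7 and NCI-N87 (medians -0.19, -0.44 and -0.64), and 1 rose in MKN7. Respiratory chain subunits fell in 0 of 67, 21 of 65 and 24 of 64 (medians 0.06, -0.20 and -0.34), and 1 rose in each of these lines. Translation factors and other TOP genes fell in 2, 9 and 11 of 24 (medians -0.07, -0.22 and -0.30) and rose in 0, 3 and 1. Of the genes of TOP and S6 kinase signalling, 5 fell and 4 rose in MKN1 (24 tested), 12 fell and 3 rose in MKN7 (23 tested) and 13 fell and 7 rose in NCI-N87 (24 tested). Other coding genes with transcripts under 1 kb had medians of 0.02, -0.04 and -0.02 and those over 4 kb -0.04, -0.02 and -0.15 in MKN1, MKN7 and NCI-N87.

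At 4 h of Afa, no member was called in MKN1 (3.68% of all genes called), NCI-N87 (18.2%) or Hs746T (0%), and RPL7L1 alone fell in MKN7 (12.1% of all genes lower). Its libraries in MKN7 had 348, 342 and 351 normalized CPM untreated and 293, 287 and 290 with Afa (log2FC -0.30, SE 0.06, edgeR adjusted p = 0.000535). No MKN1 member, 1 NCI-N87 member and 18 Hs746T members had an unadjusted p below 0.05. DESeq2 called none in MKN1 or Hs746T and 1 in NCI-N87. In NCI-N87, 35 of 42 ribosome assembly genes had already fallen at 4 h (median -0.56).

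In Hs746T at 4 h the members' calls with the block depended on replicate 2. Their median log2FC was 0.49 with Afa and 0.29 to 0.39 in the other 5 treatments, which share the untreated libraries. RPS6 had 738, 611 and 653 normalized CPM untreated and 951, 940 and 675 with Afa. With the replicate block, 70 of 73 members were called higher with Afa (10.3% of all genes), 2 with Tra+Afa (0.889%) and none with the other treatments. Without replicate 2 the block called none and the median for Afa was 0.33. Without replicate 1, in contrast, it called 59 to 70 members higher in each of the 6 treatments, and without replicate 3 it called 70 with Afa and none with the others. The untreated library had a lower share than all treated ones in replicate 2, and also in replicate 3 (4.50% against 4.94% to 5.47%). For Afa the share was higher in replicate 1 as well (4.76% against 3.62%). Under the main test no gene was called in any Hs746T treatment. Other short transcripts (under 1 kb) had a median of 0.25 and long ones (over 4 kb) of -0.10 in the same comparison with Afa.

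The comparison of EGF with untreated cells shows the opposite input to the receptor. In MKN1 at 24 h, 2 members rose and none fell (17.3% of all genes higher, 18.5% lower). RPL22L1 rose from 18.9, 27.4 and 22.5 to 33.99, 49.5 and 35.4 normalized CPM (log2FC 0.81, SE 0.25, edgeR adjusted p = 0.0109). RPL7L1 rose from 210, 191 and 218 to 306, 287 and 274 (log2FC 0.50, SE 0.08, edgeR adjusted p = 1.06e-05). All EGF libraries lay above all untreated ones for both genes. The ordinary members had small positive values: 73 of 74 log2FC were above 0 with a median of 0.31, and the 67 ordinary members lay between 0.20 and 0.48. RPLP0 had 1493, 1894 and 1421 untreated and 1649, 2470 and 1501 with EGF, higher within every replicate number while the groups overlapped. With the replicate block, 33 members were called higher (24.7% of all genes). Without replicate 2, 39 were higher and 1 lower with a median of 0.19, and without replicate 1 or 3 the numbers higher were 1 and 2. With library size alone the median was 0.10 and that of all genes -0.24, so that the members stood 0.34 above all genes, against 0.36 with TMM factors. Without replicate 1 the call of RPL22L1 was lost (0.79).

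For the other gene lists, EGF in MKN1 was compared with the same untreated libraries that the Afa comparison used, and 17.3% of all genes were higher and 18.5% lower. Of 42 ribosome assembly genes, 39 rose (median 0.64). Mitochondrial ribosomal proteins rose in 24 of 65 genes, translation factors and other TOP genes in 9 of 24, and respiratory chain subunits in 2 of 67, while 2 of the 67 fell. EGF+Cet at 24 h raised RPL7L1 alone (0.33, SE 0.08, edgeR adjusted p = 0.00399; 9.17% of all genes higher), with 287, 242 and 248 normalized CPM. There the block called 4 higher (18.2%), and leaving out replicate 1, 2 or 3 gave 0, 23 and 1. Between EGF+Cet and EGF no member was called (0.646% of all genes). 1 member had an unadjusted p below 0.05, and DESeq2 called none. At 4 h no member was called with EGF (6.82% of all genes), Cet (1.43%) or EGF+Cet (0.717%), none had an unadjusted p below 0.05, and DESeq2 called none.

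Cet at 24 h in MKN1 lowered RPL22L1 (5.91% of all genes lower) to 13.9, 12.9 and 11.6 normalized CPM (log2FC -0.87, SE 0.25, edgeR adjusted p = 0.0239). All 74 log2FC were below 0 with a median of -0.30. That median rested on replicate 2, in which Cet and untreated cells differed in share as given above. Without it the median was -0.01 and 3 members were lower, and without replicate 1 or 3 none was, RPL22L1 then having -1.06 and -0.83. The block gave 11 lower (15.7%), but replicate numbers did not pair Cet with untreated libraries at this time.

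With Tra alone no member was called in any line at either time, and no gene at all was called (0%). This does not show that the members were unchanged. Their median log2FC in Hs746T at 4 h was 0.35, and calls there depended on the replicates, as given above. 1 member had an unadjusted p below 0.05 in MKN7 at 24 h and none in the other 7 comparisons. DESeq2 called no member. Tra+Afa was set against the same untreated libraries as Afa. In MKN7 at 24 h it lowered 5 members and raised 1 (25.1% and 26.8% of all genes), with RPL22L1 at -0.87 (SE 0.16), RPS26 at -0.64 (SE 0.19), RPL7L1 at -0.43 (SE 0.06) and RPS27L at 0.94 (SE 0.08). RPS27L had 67.3, 69.6 and 64.2 normalized CPM with Tra+Afa. The block called 12 lower and 2 higher (30.8% and 33.2%), and leaving out replicate 1, 2 or 3 gave 2, 10 and 3 lower. At 4 h in MKN7, RPL7L1 was lower (-0.30, SE 0.06; 13% of all genes lower) and RPS27L higher (0.25, SE 0.08; 10.4% higher). The RPS27L call was lost without replicate 2 (0.27) or 3 (0.15).

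In NCI-N87 at 24 h Tra+Afa lowered 8 of 73 members (32% of all genes lower). RPL39L had 1.51, 1.79 and 3.17 normalized CPM (log2FC -1.61, SE 0.25, edgeR adjusted p = 6.87e-06), RPL7L1 74.4, 64.1 and 62.2 (-1.18, SE 0.15) and RPL22L1 86.6, 109 and 178 (-0.89, SE 0.26), each below all untreated libraries. The others were RPL35, RPL27, RPL26L1, RPL5 and RPL6, between -0.68 and -0.42. Against Tra alone 16 members were lower (30.3% of all genes), again led by RPL39L (-1.67), RPL22L1 (-1.05) and RPL7L1 (-1.05). The block called 34 lower against untreated (36.3%) and 57 against Tra (34.8%). Leaving out replicate 1, 2 or 3 gave 2, 3 and 23 lower against untreated and 4, 8 and 22 against Tra. The members' median against untreated was -0.22, and 0.08 with library size alone. In MKN1 at 24 h Tra+Afa lowered 5 members (14.1% of all genes lower): RPL22L1 (-1.07), RPL5 (-0.78), RPS26 (-0.73), RPL39L (-0.53) and RPL7L1 (-0.24). The median was -0.33, and -0.08 without replicate 2, the library pair whose shares differed. Leaving out replicate 1, 2 or 3 gave 4, 9 and 1 lower. The block gave 31 (22.7%), but replicate numbers did not pair these libraries either. At 4 h in NCI-N87 and MKN1 Tra+Afa called no member (17.3% and 3.95% of all genes), with 1 and 0 members at an unadjusted p below 0.05 and 1 and 0 called by DESeq2. In NCI-N87 the block called 19 higher and 1 lower there (15.8% and 16.7% of all genes), and the median of 0.25 was -0.004 without replicate 1.

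Few members were called between the 2 times in untreated cells. Between 4 h and 24 h, untreated MKN1 cells had less RPL22L1 (34.98, 49.6 and 30.96 normalized CPM at 4 h; log2FC -0.77, SE 0.25, edgeR adjusted p = 0.0162) and less RPL7L1 (269, 237 and 249 at 4 h; -0.30, SE 0.08), where 16.4% of all genes were lower and 17.7% higher. MKN7 cells had less RPL7L1 (-0.25, SE 0.06; 9.43% lower and 6.96% higher), and NCI-N87 and Hs746T cells had no call among members (0.267% and 1.48% of all genes called), with no unadjusted p below 0.05 and no DESeq2 call. Without replicate 2, 8 members were lower in MKN1, without replicate 1 only 1 was. In MKN7 the call was lost without replicate 1 (-0.19) or 2 (-0.25).

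The effect of Afa at 24 h was also compared between lines by the interaction test over all libraries. The effect on RPL7L1 was stronger in NCI-N87 than in MKN1 (difference -0.83), MKN7 (-0.66) and Hs746T (1.01 for Hs746T minus NCI-N87). The effect on RPL39L was stronger in NCI-N87 than in MKN1 (-1.18) and MKN7 (-1.37). RPS27L responded more in MKN7 than in MKN1 (0.91), and Hs746T and NCI-N87 lay below MKN7 (-0.81 and -1.16). No difference was called for RPL22L1 in any of the 6 pairs, which does not show that the lines responded alike. Of all genes, 4.41% were called between Hs746T and MKN1, 18.8% between Hs746T and MKN7, 35.1% between Hs746T and NCI-N87, 7.6% between MKN7 and MKN1, 28% between NCI-N87 and MKN1 and 21.4% between NCI-N87 and MKN7, and 9 calls fell on the members in all. The call of RPL7L1 between Hs746T and MKN7 (0.36) was lost without replicate 2 (0.37) or 3 (0.29), with DESeq2 (0.30) and with library size alone (0.25). The RPS27L calls of MKN7 against MKN1 and Hs746T were lost when any 1 replicate was left out, and those of RPL39L without replicate 2 (-1.02) against MKN1 and without replicate 1 (-1.20) or 2 (-1.30) against MKN7. With the block the log2FC under Afa was called higher in Hs746T for 4 members against MKN1 (12% of all genes), 6 against MKN7 (19.4%) and 10 against NCI-N87 (26.1%). At 4 h no member was called in any of the 6 pairs (0.372%, 5.3%, 6.74%, 1.38%, 1.83% and 1.01% of all genes, in the same order), and 0 to 2 had an unadjusted p below 0.05.

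The levels of the members in untreated cells differed between lines. Most members were lower in Hs746T: 43 members were lower and 9 higher than in MKN1 (38.9% and 37.6% of all genes), 46 lower and 7 higher than in MKN7 (37.4% and 36.8%), and 46 lower and 10 higher than in NCI-N87 (39.3% and 37%). The median differences were -0.48, -0.57 and -0.55. MKN7 exceeded MKN1 in 24 members and was below it in 17 (35.5% and 36.5%), NCI-N87 exceeded MKN1 in 21 and was below it in 21 (38% and 37.7%), and NCI-N87 exceeded MKN7 in 20 and was below it in 21 (37.5% and 35.8%). The median differences of these 3 pairs were 0.13, -0.05 and -0.08. The block gave 41 higher in MKN7 than in MKN1 (37%) and 33 lower in NCI-N87 than in MKN7 (37%). MKN7 minus MKN1 gave 12, 39 and 11 higher without replicate 1, 2 or 3. Between NCI-N87 and MKN1 it gave 16, 26 and 10, and between NCI-N87 and MKN7 21, 16 and 12. Hs746T exceeded MKN1 in 8, 12 and 4 members and NCI-N87 in 6, 10 and 11.

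RPL39L, RPL10L and RPL22L1 had the largest ranges between lines. RPL39L ran from 33.5 to 42.1 normalized CPM in MKN1 (median 37.3 over 6 untreated libraries), from 5.17 to 7.76 in NCI-N87 (6.20), from 1.46 to 1.99 in MKN7 (1.75) and from 0.0192 to 0.329 in Hs746T (0.120). No 2 neighbouring lines overlapped in this order. RPL10L, a testis-enriched copy of RPL10, had 8.89 to 12.2 in MKN1 and at most 0.141 in any untreated library of the other lines, near the level of 3 counts. RPL22L1 had 166 to 309 in NCI-N87 (median 230), while MKN1 (18.9 to 49.6), MKN7 (20.8 to 33.1) and Hs746T (22.8 to 25.9) overlapped. RPS27L was lowest in MKN1 (17.6 to 27.4) and did not overlap with MKN7 (28.1 to 36.7), nor MKN7 with NCI-N87 (36.96 to 59.6), while Hs746T (37.97 to 60.03) overlapped with NCI-N87. RPL7L1 was highest in MKN7 (289 to 351) and lowest in NCI-N87 (132.4 to 187).

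Among the ordinary members RPL19, RPL23 and RPL37 stood out. RPL37, on chromosome 5, was highest in untreated MKN7 (194 CPM per kb) and lowest in untreated Hs746T (41.9), a range of 2.20 on the log2 scale. RPL19 (chr17:39200283-39204732) had 5069 to 7128 normalized CPM in MKN7 and 4756 to 6848 in NCI-N87, against 834 to 1267 in MKN1 and 656 to 1034 in Hs746T. MKN7 and NCI-N87 overlapped, and so did MKN1 and Hs746T, while the pairs were far apart (MKN7 minus MKN1 2.61, SE 0.20, edgeR adjusted p = 3.68e-22). RPL23 (chr17:38847865-38853843) was high in NCI-N87 alone, at 3301 to 5274, against 697 to 961 in MKN7, 594 to 956 in MKN1 and 399 to 723 in Hs746T. Both genes lie near ERBB2 (chr17:39687914-39730426), RPL19 at 483 kb and RPL23 at 834 kb. RPL23A, RPL27 and RPL38, the other members on this chromosome, lie 3268 kb or more away.

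This prompted a look at the neighbours of each member, the 10 nearest other coding genes tested on each side (16 in all for RPL8). The difference of a member between lines went with the median difference of its neighbours, with Pearson's r from 0.74 to 0.83 across 71 members in the 6 pairs of lines, leaving out RPL39L, RPL10L and RPL22L1. Genes are not independent replicates, and neighbouring genes share the copy number and the chromatin of their region. Without RPL19 and RPL23 as well r was 0.69 to 0.82 across 69 members, and with all 74 it was 0.18 to 0.77. The neighbours of RPL23 had a median of 2.13 in NCI-N87 minus MKN1, where RPL23 itself had 2.57. The neighbours of RPL19 had 2.35 where RPL19 had 2.53, but 0.37 in MKN7 minus MKN1, where RPL19 had 2.61. RPLP2 was 1.93 lower in NCI-N87 than in MKN7 on the log2 scale, and its neighbours had a median of -1.46. The paralogs RPL39L and RPL10L had neighbours with medians of 0.15 and 0.94 in Hs746T minus MKN1, where RPL39L itself had -7.84 (SE 0.27). DNA copy number was not measured here, and its part was not tested.

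**Figure D5:**
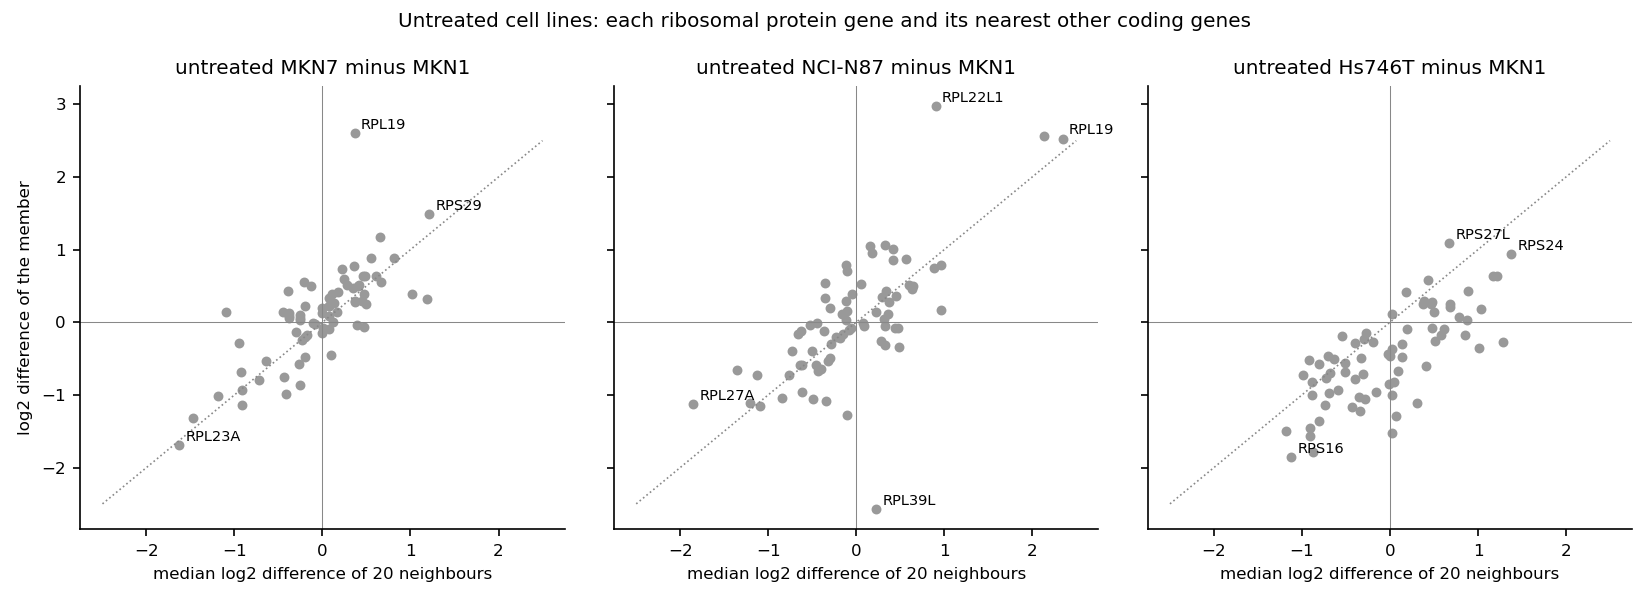
Log2 difference between untreated lines of each member (vertical axis) against the median log2 difference of its nearest other coding genes (horizontal axis, 20 neighbours each, 16 for RPL8), 1 point per gene and 1 panel per comparison with MKN1, with the dotted line at equal values. Points follow the line in all 3 panels, RPL19 lies far above it in MKN7, and RPL10L (all panels) and RPL39L (MKN7 and Hs746T) fall below the drawn range.

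Across the 44 conditions, centred within cell line and time point, the genes outside the set whose mean log2 CPM went most closely with the mean of the members were NACA (r = 0.98), SAP18 (0.96), COA3 (0.96), MRPL43 (0.95) and COPS9 (0.95). NACA encodes the alpha subunit of the nascent polypeptide-associated complex, which meets new chains at the ribosome. FAU, which encodes a ribosomal protein but has no RPS symbol, reached 0.95 and was named after its value was seen. The conditions share libraries and the movements of single libraries described above.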

How the data were processed

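PolyA mRNA of 44 conditions in triplicate was sequenced paired-end from a strand-specific kit. The deposited values are raw read counts per gene identifier, which the authors made after trimming and alignment. The submitters' processing notes name Trim Galore, STAR and hg38. The counting program, its treatment of reads that match several places and all versions are not given in the sources used here, and this can lower the counts of genes with near-identical copies. All 37 mitochondrial identifiers are at 0 in every library, and 8404 identifiers without an entry in GENCODE 29 held 0.0422% of the counts.

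Counts were tested with edgeR 4.0.16 in R 4.3.3 (quasi-likelihood, TMM factors, edgeR's filter on low counts set to min.count 10 and min.total.count 15) with all libraries of 1 line in a fit. A single fit of all lines gave the differences between lines and the interactions. Calls are Benjamini-Hochberg adjusted p below 0.05 over all genes tested. Normalized CPM use the TMM library sizes. Intervals and floors from counts cover counting error only. At these depths 3 counts make 0.0432 to 0.116 CPM. The p-values rest on the spread between libraries of the same condition, pooled over all conditions in a fit and moderated across genes. Scripts were tested on simulated data.

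Same-numbered libraries deviated together (every correlation above 0.1) in 45 of 48 comparisons, with correlations from -0.10 to 0.95 and a median of 0.78. The exceptions were Cet, Tra+Afa and Tra+Afa against Tra in MKN1 at 24 h. The sample numbers in the labels restart once and were read here as 2 sequencing series. The first holds replicate 1, and replicate 2 of MKN1 and of Hs746T at 4 h. The second holds replicate 3 and the other libraries of replicate 2. For each line, time and replicate number all treatments lie in the same series, but the main fit had no term for series or replicate number. In replicate 2, untreated levels mix both series in every pair of lines except NCI-N87 and MKN7, and so does 24 h against 4 h in Hs746T. The differences in Afa effect mix them at 24 h in the pairs with MKN1. At 4 h they do so where MKN1 or Hs746T is set against MKN7 or NCI-N87. The libraries of replicate 2 that stood apart in MKN1 and Hs746T are in the first series. The part of the series in these results was not tested. No pair of replicates came near counting noise (smallest variance ratio 7.84 over all pairs within groups). Alternatives were DESeq2 1.42.0, other scalings and filters, a fit of the compared groups only, the replicate block, and leaving out each replicate. The block with a replicate left out was added after seeing the data.

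The genes and gene lists were chosen with earlier results of these data known. Named genes were the paralog pairs, the stalk, the MDM2-binding members, RPS6, RPS3, RPSA, RPS27A and RPL13A, the 3 largest rises and falls among calls, the extremes of level and of range between lines, and the 5 outside genes most like the members.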

Additional observations from a re-analysis of the deposited data

Results flagged for a closer look

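The effect of Afa at 24 h differed between lines, by the interaction test in edgeR (adjusted p below 0.05), for 3 of the 74 genes. RPL39L differed by -1.18 between NCI-N87 and MKN1 and by -1.37 between NCI-N87 and MKN7. RPL7L1 differed by -0.83 between NCI-N87 and MKN1, by -0.66 between NCI-N87 and MKN7, by 0.36 between Hs746T and MKN7 and by 1.01 between Hs746T and NCI-N87. RPS27L differed by 0.91 between MKN7 and MKN1, by -0.81 between Hs746T and MKN7 and by -1.16 between NCI-N87 and MKN7. Each value is the first line's log2FC minus the second's, and the pairs share lines, so they are not separate findings.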

How the results depend on the processing

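No named member changed direction where it was called. Over all alternatives 1406 single values kept their side of the threshold, 172 lost it and 38 gained it. Of the counts of called members 1292 stayed within 1.5 times and 196 did not, and these follow. Low counts limit RPL10L outside MKN1 and RPL39L in Hs746T. The cause of a change was not tested, beyond the samples or genes a setting removes. With DESeq2, the number of members higher was 1 for MKN7 Afa, 4 h (reported 0) and 0 for Afa effect of Hs746T minus MKN7, 24 h (reported 1). With DESeq2, the number of members lower was 1 for NCI-N87 Afa, 4 h (reported 0), 1 for NCI-N87 Tra+Afa against Tra, 4 h (reported 0) and 1 for NCI-N87 Tra+Afa, 4 h (reported 0). With at least 10 counts in every library, the number of members higher was 1 for MKN7 Afa, 4 h (reported 0) and 1 for NCI-N87 Afa, 24 h (reported 0). With at least 10 counts in every library, the number of members lower was 3 for NCI-N87 Afa, 24 h (reported 5), 8 for NCI-N87 Tra+Afa against Tra, 24 h (reported 16) and 4 for NCI-N87 Tra+Afa, 24 h (reported 8). With library size alone, the number of members lower was 3 for MKN1 Tra+Afa against Tra, 24 h (reported 5), 1 for MKN1 24 h against 4 h (reported 2), 3 for MKN7 Afa, 24 h (reported 5), 3 for MKN7 Tra+Afa against Tra, 24 h (reported 5), 1 for MKN7 Tra+Afa against Tra, 4 h (reported 2), 3 for MKN7 Tra+Afa, 24 h (reported 5), 2 for NCI-N87 Afa, 24 h (reported 5), 4 for NCI-N87 Tra+Afa against Tra, 24 h (reported 16) and 3 for NCI-N87 Tra+Afa, 24 h (reported 8). With library size alone, the number of members higher was 2 for MKN7 Afa, 24 h (reported 1), 1 for MKN7 Afa, 4 h (reported 0), 1 for MKN7 Tra+Afa against Tra, 4 h (reported 0), 2 for MKN7 Tra+Afa, 24 h (reported 1), 1 for MKN7 24 h against 4 h (reported 0), 5 for NCI-N87 Afa, 24 h (reported 0), 2 for NCI-N87 Tra+Afa, 24 h (reported 0), 0 for Afa effect of Hs746T minus MKN7, 24 h (reported 1) and 15 for untreated MKN7 minus MKN1 (reported 24). With no filter, the number of members lower was 3 for MKN1 Tra+Afa against Tra, 24 h (reported 5), 9 for MKN7 Afa, 24 h (reported 5), 1 for MKN7 Tra+Afa against Tra, 4 h (reported 2), 0 for MKN7 24 h against 4 h (reported 1), 1 for NCI-N87 Afa, 4 h (reported 0), 1 for NCI-N87 Tra+Afa against Tra, 4 h (reported 0) and 1 for NCI-N87 Tra+Afa, 4 h (reported 0). With only the compared groups in the fit, the number of members lower was 17 for MKN1 Tra+Afa against Tra, 24 h (reported 5) and 0 for MKN7 24 h against 4 h (reported 1). With only the compared groups in the fit, the number of members higher was 0 for MKN7 Tra+Afa, 4 h (reported 1). With the replicate block, the number of members higher was 70 for Hs746T Afa, 4 h (reported 0), 2 for Hs746T Tra+Afa, 4 h (reported 0), 33 for MKN1 EGF, 24 h (reported 2), 4 for MKN1 EGF+Cet, 24 h (reported 1), 1 for MKN7 Afa, 4 h (reported 0), 2 for MKN7 Tra+Afa, 24 h (reported 1), 1 for NCI-N87 Afa, 24 h (reported 0), 19 for NCI-N87 Tra+Afa, 4 h (reported 0), 4 for Afa effect of Hs746T minus MKN1, 24 h (reported 0), 6 for Afa effect of Hs746T minus MKN7, 24 h (reported 1), 10 for Afa effect of Hs746T minus NCI-N87, 24 h (reported 1), 2 for Afa effect of MKN7 minus MKN1, 24 h (reported 1), 1 for Afa effect of NCI-N87 minus MKN7, 24 h (reported 0) and 41 for untreated MKN7 minus MKN1 (reported 24). With the replicate block, the number of members lower was 5 for MKN1 Afa, 24 h (reported 3), 11 for MKN1 Cet, 24 h (reported 1), 1 for MKN1 EGF+Cet against EGF, 24 h (reported 0), 56 for MKN1 Tra+Afa against Tra, 24 h (reported 5), 31 for MKN1 Tra+Afa, 24 h (reported 5), 16 for MKN7 Afa, 24 h (reported 5), 3 for MKN7 Afa, 4 h (reported 1), 17 for MKN7 Tra+Afa against Tra, 24 h (reported 5), 12 for MKN7 Tra+Afa, 24 h (reported 5), 3 for MKN7 Tra+Afa, 4 h (reported 1), 15 for NCI-N87 Afa, 24 h (reported 5), 1 for NCI-N87 Afa, 4 h (reported 0), 57 for NCI-N87 Tra+Afa against Tra, 24 h (reported 16), 2 for NCI-N87 Tra+Afa against Tra, 4 h (reported 0), 34 for NCI-N87 Tra+Afa, 24 h (reported 8), 1 for NCI-N87 Tra+Afa, 4 h (reported 0), 1 for Afa effect of MKN7 minus MKN1, 24 h (reported 0) and 33 for untreated NCI-N87 minus MKN7 (reported 21). For Tra+Afa against Tra at 24 h the main test called 2961 of 19815 genes lower in MKN1 and 3995 of 18483 in MKN7. Replicate numbers did not pair the MKN1 libraries of that comparison. Block counts whose share of all genes is not given above describe only how the members' calls depend on the fit. The median for NCI-N87 Tra+Afa, 24 h, was 0.08 with library size alone. No other median moved by more than 0.297, the SD of the members' mean deviation between libraries of a condition. Many medians are themselves smaller than that, so staying within it does not show that they held. Some turned in sign or nearly vanished, as given above. When each replicate was left out in turn, the members lower ranged from 0 to 11 for MKN1 Afa, 24 h, from 0 to 3 for MKN1 Cet, 24 h, from 0 to 1 for MKN1 EGF, 24 h, from 1 to 20 for MKN1 Tra+Afa against Tra, 24 h, from 1 to 9 for MKN1 Tra+Afa, 24 h, from 1 to 8 for MKN1 24 h against 4 h, from 2 to 19 for MKN7 Afa, 24 h, from 1 to 2 for MKN7 Afa, 4 h, from 2 to 9 for MKN7 Tra+Afa against Tra, 24 h, from 1 to 2 for MKN7 Tra+Afa against Tra, 4 h, from 2 to 10 for MKN7 Tra+Afa, 24 h, from 1 to 2 for MKN7 Tra+Afa, 4 h, from 0 to 2 for MKN7 24 h against 4 h, from 2 to 6 for NCI-N87 Afa, 24 h, from 0 to 1 for NCI-N87 Afa, 4 h, from 4 to 22 for NCI-N87 Tra+Afa against Tra, 24 h, from 0 to 1 for NCI-N87 Tra+Afa against Tra, 4 h, from 2 to 23 for NCI-N87 Tra+Afa, 24 h, from 0 to 1 for NCI-N87 Tra+Afa, 4 h, from 0 to 0 for Afa effect of Hs746T minus MKN7, 24 h, from 1 to 2 for Afa effect of NCI-N87 minus MKN1, 24 h. When each replicate was left out in turn, the members higher ranged from 1 to 39 for MKN1 EGF, 24 h, from 0 to 23 for MKN1 EGF+Cet, 24 h, from 0 to 1 for MKN7 Tra+Afa, 4 h, from 0 to 1 for Afa effect of Hs746T minus MKN7, 24 h, from 0 to 0 for Afa effect of MKN7 minus MKN1, 24 h, from 4 to 12 for untreated Hs746T minus MKN1, from 6 to 11 for untreated Hs746T minus NCI-N87, from 11 to 39 for untreated MKN7 minus MKN1, from 10 to 26 for untreated NCI-N87 minus MKN1, from 12 to 21 for untreated NCI-N87 minus MKN7. When each was left out from the fit with the block, an alternative chosen after seeing the data, the members higher ranged from 0 to 70 for Hs746T Afa, 4 h, from 0 to 59 for Hs746T Cet, 4 h, from 0 to 59 for Hs746T EGF, 4 h, from 0 to 65 for Hs746T EGF+Cet, 4 h, from 0 to 70 for Hs746T Tra, 4 h, from 0 to 70 for Hs746T Tra+Afa, 4 h, from 0 to 1 for MKN1 Afa, 24 h, from 0 to 1 for MKN1 Cet, 24 h, from 6 to 70 for MKN1 EGF, 24 h, from 0 to 7 for MKN1 EGF, 4 h, from 2 to 69 for MKN1 EGF+Cet, 24 h, from 0 to 1 for MKN1 Tra+Afa, 24 h, from 0 to 1 for MKN7 Afa, 4 h, from 0 to 2 for MKN7 Tra+Afa against Tra, 4 h, from 1 to 2 for MKN7 Tra+Afa, 24 h, from 0 to 6 for MKN7 Tra+Afa, 4 h, from 0 to 7 for NCI-N87 Afa, 24 h, from 0 to 5 for NCI-N87 Tra+Afa, 24 h, from 0 to 21 for NCI-N87 Tra+Afa, 4 h. When each was left out from the fit with the block, an alternative chosen after seeing the data, the members lower ranged from 2 to 29 for MKN1 Afa, 24 h, from 2 to 11 for MKN1 Cet, 24 h, from 0 to 1 for MKN1 EGF, 24 h, from 27 to 54 for MKN1 Tra+Afa against Tra, 24 h, from 7 to 29 for MKN1 Tra+Afa, 24 h, from 0 to 2 for MKN1 Tra+Afa, 4 h, from 8 to 40 for MKN7 Afa, 24 h, from 1 to 2 for MKN7 Afa, 4 h, from 7 to 32 for MKN7 Tra+Afa against Tra, 24 h, from 2 to 10 for MKN7 Tra+Afa against Tra, 4 h, from 8 to 27 for MKN7 Tra+Afa, 24 h, from 1 to 2 for MKN7 Tra+Afa, 4 h, from 7 to 11 for NCI-N87 Afa, 24 h, from 1 to 8 for NCI-N87 Afa, 4 h, from 41 to 47 for NCI-N87 Tra+Afa against Tra, 24 h, from 1 to 2 for NCI-N87 Tra+Afa against Tra, 4 h, from 16 to 33 for NCI-N87 Tra+Afa, 24 h, from 1 to 1 for NCI-N87 Tra+Afa, 4 h. In that fit 28 members were lower for MKN1 Tra+Afa, 24 h, without replicate 2, and 13 for MKN7 Tra+Afa against Tra, 24 h, without replicate 3. No blocked fit was made for 24 h against 4 h. In all other comparisons the block kept the counts within 1.5 times.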
